A study of Mus musculus with 14 samples.

Results

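The genes described here are 10 members of the calcium/calmodulin-dependent protein kinase system: the CaMKII subunit genes Camk2a, Camk2b, Camk2d and Camk2g, the CaMKII inhibitor genes Camk2n1 and Camk2n2, the upstream kinase genes Camkk1 and Camkk2, and their downstream kinase genes Camk4 and Camk1g. They were chosen by name, with earlier results of these data known, from the kinases of this system and their protein inhibitors. They make up 10 of the 43629 gene identifiers in the count tables. All 10 passed the filter on low counts that left 15959 genes for testing. RNA-seq was made from primary cultures of wild type C57BL6 mouse hippocampus, taken from newborn pups (postnatal day 0 to 1) and grown for 14 days in vitro. The PTX group (n = 4) received 100 µM picrotoxin, a blocker of GABA-A receptors, for 15 h, and the CTRL group (n = 4) received 0.1% DMSO for the same time. ChIP-seq with an antibody against the chromatin reader L3mbtl1 came from hippocampus of L3mbtl1-/- mice (n = 3) and wild type mice (n = 3) of postnatal day 7 to 8 on a mixed C57BL6/129 background, and gave 1 peak list for all 6 samples.

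Calcium that enters a firing neuron binds calmodulin, and calcium-calmodulin switches these kinases on. CaMKII is a large holoenzyme built from alpha, beta, delta and gamma subunits, is very abundant at excitatory synapses of the hippocampus, and can hold itself active by phosphorylating its own subunits, which is why it is best known for long-term potentiation. Camk2n1 and Camk2n2 encode small proteins that bind and inhibit active CaMKII. In a separate branch, CaMKK1 and CaMKK2 phosphorylate and activate CaMKI and CaMKIV, of which CaMKIV acts in the nucleus on CREB and its coactivators. CaMKK2 also activates the energy-sensing kinase AMPK.

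Gene counts per library ran from 15082428 to 16838989 in PTX and from 14524916 to 19498189 in CTRL. Levels are given in CPM, counts relative to the scaled library total, so values of 1 gene can be compared between libraries but not between genes of different length. The first principal component parted PTX from CTRL, and on the second both replicates 1 stood apart. The summed level of 7 meningeal fibroblast markers was 541 CPM in PTX replicate 1 and 112 to 141 CPM in the other PTX libraries, and it was 669 CPM in CTRL replicate 1 and 150 to 223 CPM in the other CTRL libraries. A change counts as a call at a Benjamini-Hochberg adjusted p under 0.05 over all tested genes in edgeR's quasi-likelihood test, and "rose" and "fell" are used for calls. Across all tested genes 39.2% were called, 19.0% higher and 20.1% lower in PTX.

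Promoter sequence is shown for 4 of the genes, because Camkk1 and Camk2n2 both rose under picrotoxin and both carry L3mbtl1 peaks at or beside their start sites, while Camk1g rose and Camkk2 fell with no peak there. Each runs from 250 bases before to 50 bases after the start site, in the direction of transcription, from RefSeq (GRCm38.p6, the assembly of mm10). Capitals mark TGACG, the core of the CREB binding site, and GGGCGG, a GC box bound by Sp1-type factors, each on either strand (as CGTCA or CCGCCC on the other). The Camkk1 window is at chr11:73018738-73019037 on the plus strand, Camk2n2 at chr16:20621229-20621528, Camk1g at chr1:193370233-193370532 and Camkk2 at chr5:122779361-122779660, the last 3 on the minus strand.
Camkk1: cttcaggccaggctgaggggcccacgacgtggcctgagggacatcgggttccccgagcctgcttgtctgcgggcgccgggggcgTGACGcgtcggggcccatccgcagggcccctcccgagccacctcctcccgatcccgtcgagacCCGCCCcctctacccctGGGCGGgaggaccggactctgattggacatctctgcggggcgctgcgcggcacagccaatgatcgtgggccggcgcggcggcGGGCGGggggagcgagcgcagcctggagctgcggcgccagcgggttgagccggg
Camk2n2: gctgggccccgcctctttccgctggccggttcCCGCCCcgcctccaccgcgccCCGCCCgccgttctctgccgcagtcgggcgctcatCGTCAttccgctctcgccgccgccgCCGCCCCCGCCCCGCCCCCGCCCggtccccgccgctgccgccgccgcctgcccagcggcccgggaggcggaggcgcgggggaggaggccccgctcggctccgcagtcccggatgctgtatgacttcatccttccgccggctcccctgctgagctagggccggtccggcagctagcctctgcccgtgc
Camk1g: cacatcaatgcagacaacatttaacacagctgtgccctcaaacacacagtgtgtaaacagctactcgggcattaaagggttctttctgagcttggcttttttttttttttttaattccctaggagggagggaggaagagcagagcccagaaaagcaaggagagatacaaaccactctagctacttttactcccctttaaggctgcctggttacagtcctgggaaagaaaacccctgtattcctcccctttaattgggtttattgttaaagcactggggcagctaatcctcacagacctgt
Camkk2: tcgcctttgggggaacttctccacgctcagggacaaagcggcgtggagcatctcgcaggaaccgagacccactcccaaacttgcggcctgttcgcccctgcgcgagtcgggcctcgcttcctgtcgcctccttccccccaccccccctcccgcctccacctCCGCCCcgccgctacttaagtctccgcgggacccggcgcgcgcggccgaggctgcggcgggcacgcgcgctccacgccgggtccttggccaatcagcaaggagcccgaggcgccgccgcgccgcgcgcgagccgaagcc
The Camkk1 window held 1 TGACG match, starting 166 bases before the start site, and 3 GGGCGG matches. The Camk2n2 window held 1 TGACG match at 162 bases before the start site and 6 GGGCGG matches, 4 of which touch each other or overlap. Camkk2 had 1 GGGCGG match and Camk1g none of either motif. The windows of Camk2b, which fell and has a peak 830 bp downstream of its start site, and of Camk2d, which was not called, are not printed. Each held 3 GGGCGG matches, as Camkk1 did, and no TGACG match. Of 27025 RefSeq promoter windows of this length, 21.0% held TGACG and 35.9% held GGGCGG. The full CRE letters TGACGTCA, which contain TGACG and are found in 1.88% of windows, and the AP-1 letters TGAGTCA (5.17%) were in none of the 6 windows that could be matched to these genes, which include Camk2b and Camk2d. The Camk1g window also stood apart in composition, with 44.7% G and C and 1 CpG, against 75.3% and 36 CpGs in Camkk1, 79.0% and 43 in Camk2n2 and 73.3% and 42 in Camkk2. The median over all windows was 52.7% and 7 CpGs.

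Picrotoxin changed 9 of the 10 transcripts (3 rose and 6 fell), against 39.2% of all tested genes and 45.9% of those with a mean level of at least 10 CPM, as all 10 had. The fit with the replicate number as a block called the same 9, against 55.3% of all tested genes. Of the 4 CaMKII subunit genes, 3 fell to about the same extent, while Camk2d did not pass the test. The inhibitor genes moved apart, with Camk2n1 lower and Camk2n2 higher, and so did the upstream kinase genes, with Camkk1 higher and Camkk2 lower. Camk4 fell and Camk1g rose. The PTX and CTRL libraries did not overlap in 9 of the 10 genes, the called ones, against 38.0% of all tested genes. The median log2 fold change over the 10 genes was -0.66, and -0.03 over all tested genes.

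**Figure D1:**
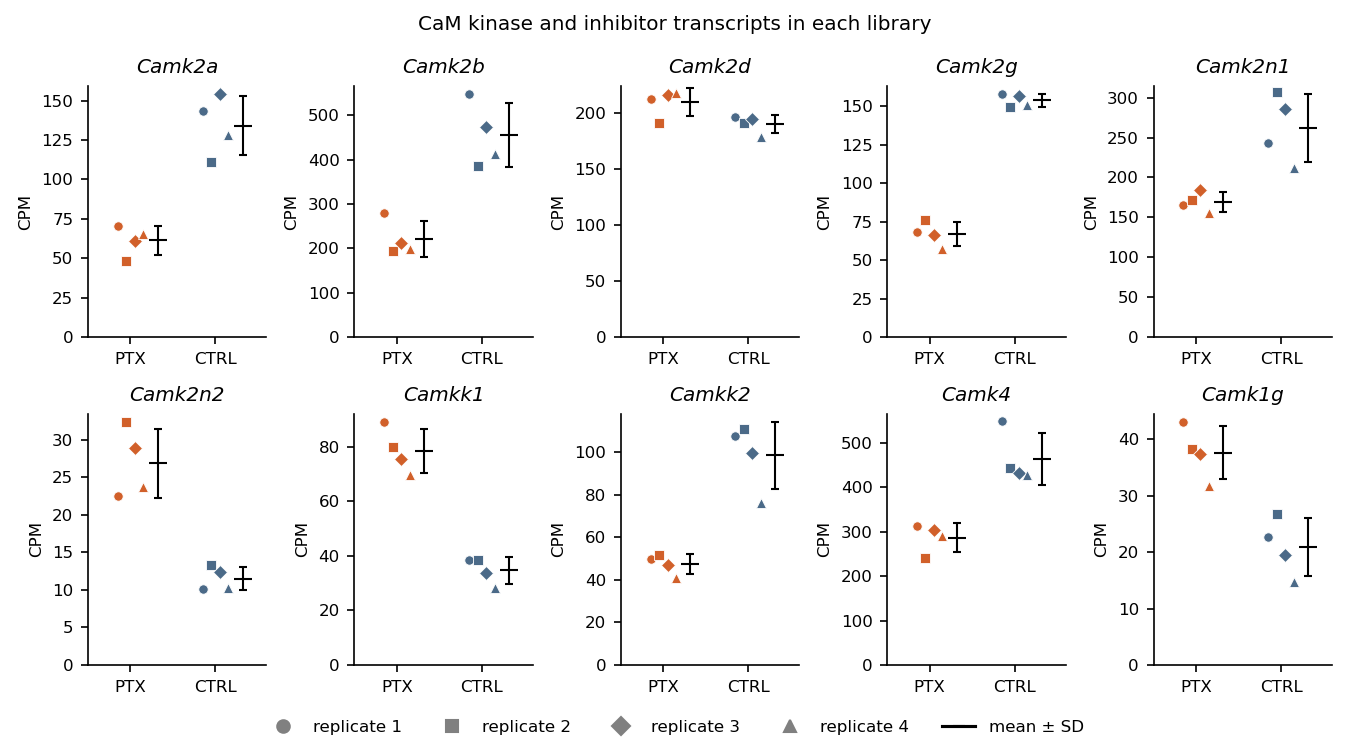
Level of each transcript in CPM (linear axis from 0) in the 4 PTX and 4 CTRL libraries, with 1 symbol per replicate number and the mean ± SD beside them. PTX lies wholly below CTRL for Camk2a, Camk2b, Camk2g, Camk2n1, Camkk2 and Camk4, wholly above it for Camk2n2, Camkk1 and Camk1g, and overlaps it for Camk2d.

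Camk2a (ENSMUSG00000024617, mm10 chromosome 18, 60925307 to 60988152) encodes the alpha subunit, which is largely restricted to forebrain excitatory neurons. It stood at 70.4, 48.6, 60.9 and 65.5 CPM in PTX libraries 1 to 4, against 143, 111, 154 and 128 CPM in CTRL libraries 1 to 4. Every PTX library was below every CTRL library, and the library numbered 2 was the lowest of its group in both. The mean fell to 61.4 ± 9.34 CPM in PTX, against 134 ± 18.7 CPM in CTRL (SD, n = 4 each), 2.18-fold lower (log2 fold change -1.13, SE 0.14, edgeR adjusted p = 0.000135).

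Camk2b (ENSMUSG00000057897, chromosome 11, 5969629 to 6066357) encodes the beta subunit, which also binds actin filaments. Its level was 280, 194, 211 and 199 CPM in PTX libraries 1 to 4 and 547, 385, 473 and 412 CPM in CTRL libraries 1 to 4. The library numbered 1 was the highest in both groups and the one numbered 2 the lowest. Camk2b fell 2.06-fold (log2 fold change -1.04, SE 0.15, edgeR adjusted p = 0.000364).

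Camk2g (ENSMUSG00000021820, chromosome 14, 20734873 to 20794157) encodes the gamma subunit, which is also made outside neurons and has been described as a carrier of calmodulin to the nucleus in neurons. Its level was 68.5, 75.8, 66.2 and 57.2 CPM in PTX libraries 1 to 4, against 158, 150, 157 and 151 CPM in CTRL. The CTRL libraries lay within 149.6 to 158 CPM, the tightest group of the subunit genes relative to its mean. Camk2g fell 2.3-fold (log2 fold change -1.20, SE 0.09, edgeR adjusted p = 9.24e-06), with the smallest p of the 10 genes.

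Camk2d (ENSMUSG00000053819, chromosome 3, 126595487 to 126846326) encodes the delta subunit, the main CaMKII of heart and of many non-neuronal cells. It was at 212, 191, 216 and 218 CPM in PTX libraries 1 to 4 and at 196, 191, 195 and 178 CPM in CTRL libraries 1 to 4. The groups overlapped, with PTX replicate 2 inside the CTRL range, and 3 of 4 same-numbered pairs had the higher level in PTX. The log2 fold change was 0.14 (SE 0.07, 95% interval -0.03 to 0.31, edgeR adjusted p = 0.173), so a change of up to 0.31 upward on the log2 scale lies within the interval and a fall of the size seen for the other subunits does not.

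The inhibitor genes changed in opposite directions. Camk2n1 (ENSMUSG00000046447, chromosome 4, 138455148 to 138460126), the better studied of the pair, had 165, 172, 184 and 155 CPM in PTX libraries 1 to 4, against 244, 307, 285 and 212 CPM in CTRL. Every PTX library was lower than every CTRL library, and CTRL was the more scattered group. Camk2n1 fell 1.55-fold (log2 fold change -0.63, SE 0.12, edgeR adjusted p = 0.00209).

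Camk2n2 (ENSMUSG00000051146, chromosome 16, 20619215 to 20621278) encodes the second inhibitor. It had 22.5, 32.4, 29.0 and 23.7 CPM in PTX libraries 1 to 4 and 10.1, 13.4, 12.3 and 10.3 CPM in CTRL libraries 1 to 4. Within both groups the libraries numbered 2 and 3 were the higher pair. Camk2n2 rose 2.33-fold to 26.9 ± 4.62 CPM in PTX, against 11.5 ± 1.58 CPM in CTRL (SD, n = 4 each, log2 fold change 1.22, SE 0.15, edgeR adjusted p = 0.000139). RefSeq places this short gene inside the read-through gene Eef1akmt4-ece2, and the strand setting of the counting is not given, so reads of the 2 cannot be told apart. Ece2 itself averaged 37.7 ± 5.77 CPM in PTX and 42.7 ± 7.17 CPM in CTRL (SD, n = 4 each, log2 fold change -0.18, edgeR adjusted p = 0.361).

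Camkk1 (ENSMUSG00000020785, chromosome 11, 73016043 to 73042073) and Camkk2 (ENSMUSG00000029471, chromosome 5, 122718380 to 122779522) encode the kinases that switch on CaMKI and CaMKIV. Camkk1 was at 89.0, 79.7, 75.6 and 69.7 CPM in PTX libraries 1 to 4, against 38.5, 38.4, 33.6 and 28.1 CPM in CTRL. The lowest PTX library stood well above the highest CTRL library. Camkk1 rose 2.27-fold (log2 fold change 1.18, SE 0.12, edgeR adjusted p = 4.61e-05). Camkk2 was at 49.7, 51.8, 46.8 and 41.0 CPM in PTX libraries 1 to 4, against 108, 111, 99.8 and 76.1 CPM in CTRL. Again no PTX library reached the CTRL range, and the library numbered 4 was the lowest of each group. Camkk2 fell 2.09-fold (log2 fold change -1.06, SE 0.13, edgeR adjusted p = 0.000138). The gene overlaps P2rx4, which was at 9.39 ± 3.15 CPM in PTX and 8.2 ± 1.08 CPM in CTRL (SD, n = 4 each).

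Camk4 (ENSMUSG00000038128, chromosome 18, 32934941 to 33195767) encodes the nuclear kinase CaMKIV, which phosphorylates CREB. It was at 312, 240, 305 and 290 CPM in PTX libraries 1 to 4, against 550, 444, 432 and 428.5 CPM in CTRL. CTRL replicate 1 stood far above the other 3 CTRL libraries, and all 4 PTX libraries were below the lowest CTRL library. Camk4 fell 1.62-fold (log2 fold change -0.69, SE 0.11, edgeR adjusted p = 0.000955), and without CTRL replicate 1 the log2 fold change was -0.55 (edgeR adjusted p = 0.00433).

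Camk1g (ENSMUSG00000016179, chromosome 1, 193346346 to 193370355) encodes CaMKI gamma, a lipid-anchored kinase linked to dendrite growth. It had 43.1, 38.3, 37.4 and 31.8 CPM in PTX libraries 1 to 4 and 22.7, 26.8, 19.5 and 14.7 CPM in CTRL libraries 1 to 4. The groups did not overlap, but the lowest PTX and the highest CTRL library were close, and replicate 4 was the lowest of each group. Camk1g rose 1.8-fold (log2 fold change 0.85, SE 0.17, edgeR adjusted p = 0.00314), with the largest SE of the 10 genes.

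**Figure D2:**
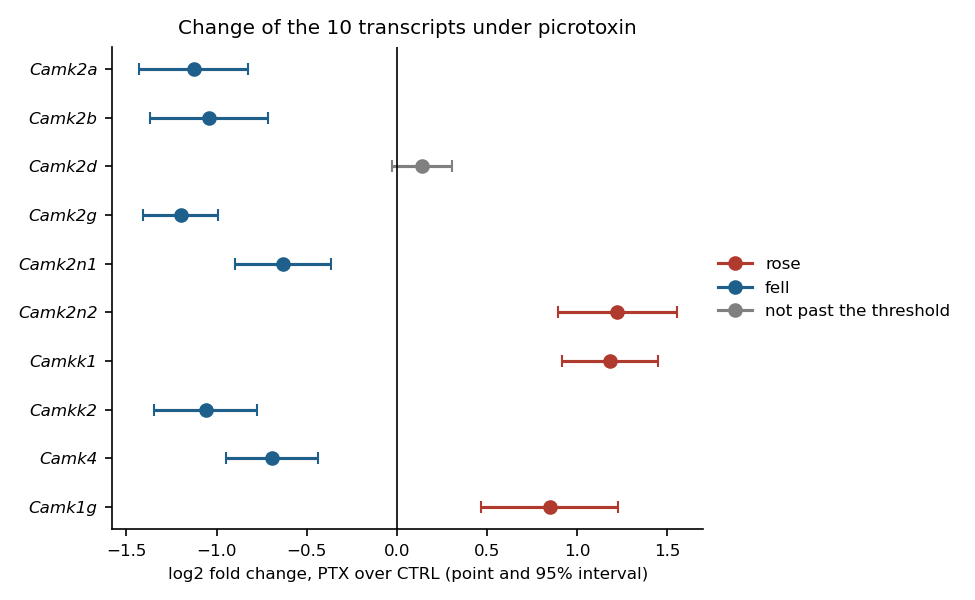
Log2 fold change (PTX over CTRL) of each transcript with its 95% interval from the edgeR fit. The 3 rises lie between 0.85 and 1.22, the 6 falls between -1.20 and -0.63, and only the interval of Camk2d includes 0.

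The levels of the kinases and inhibitors relative to each other were described by the ratio of 2 genes' counts within each library. Such a ratio does not depend on library scaling, and its difference between groups does not depend on gene length. Of 7 ratios, 4 had groups that did not overlap. For Camkk1/Camkk2, Camk2n1/Camk2n2 and Camk2n2/Camk2a this follows from the single genes, of which 1 lay wholly above and the other wholly below CTRL. For Camk2d/Camk2g it follows from the fall of Camk2g, because Camk2d differed little (190.8 to 217.7 CPM in PTX, 178.4 to 195.8 CPM in CTRL). These 4 are given as sizes with no test. The others were read with a 2-sided exact permutation test over samples, and none had a p under 0.05 even without adjustment. The smallest p that 4 against 4 libraries allow is 0.0286.

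The subunit ratio Camk2d to Camk2g was 3.1, 2.52, 3.27 and 3.81 in PTX libraries 1 to 4, against 1.24, 1.28, 1.24 and 1.19 in CTRL, 2.54-fold higher in PTX. The CTRL libraries were nearly identical and the PTX libraries spread widely. The transcript ratio Camk2a to Camk2b was 0.252, 0.251, 0.289 and 0.33 in PTX, against 0.261, 0.288, 0.326 and 0.31 in CTRL. These groups overlapped, with a log2 difference of -0.09 (SD 0.19 in PTX and 0.14 in CTRL, n = 4 each, exact permutation p = 0.514).

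The inhibitor ratio Camk2n1 to Camk2n2 was 7.34, 5.31, 6.36 and 6.54 in PTX libraries 1 to 4, against 24.0, 22.95, 23.1 and 20.6 in CTRL. The PTX mean was 3.57-fold lower, and every PTX library lay far below the CTRL range. Relative to Camk2a, Camk2n2 was 5.08-fold higher in PTX, with ratios of 0.319, 0.667, 0.475 and 0.363 in PTX libraries and 0.0711, 0.12, 0.0802 and 0.0804 in CTRL libraries. Camk2n1 relative to Camk2a was 2.34, 3.54, 3.02 and 2.37 in PTX and 1.7, 2.77, 1.85 and 1.66 in CTRL. All 4 same-numbered pairs had the higher ratio in PTX, but the groups overlapped through CTRL replicate 2 (exact permutation p = 0.0857).

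The upstream kinases changed order in count terms. There were 1.79, 1.54, 1.61 and 1.7 Camkk1 counts for each Camkk2 count in PTX libraries 1 to 4, against 0.357, 0.346, 0.337 and 0.369 in CTRL libraries, a 4.71-fold higher ratio in PTX. Both groups were tight, with an SD of 0.09 log2 units in PTX and 0.06 in CTRL (n = 4 each). Camk4 relative to Camkk2 was 1.28-fold higher in PTX, and higher in each of the 4 same-numbered pairs, with overlapping groups (exact permutation p = 0.0857).

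**Figure D3:**
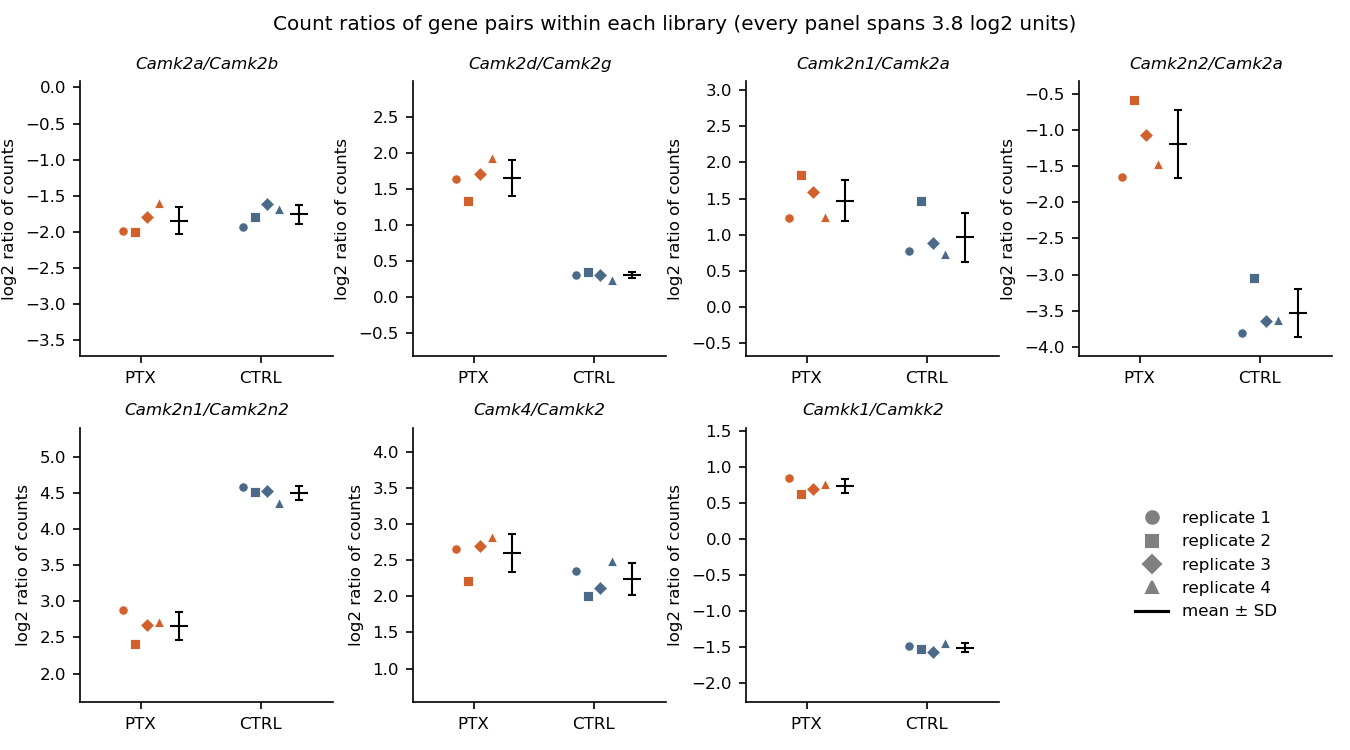
Log2 ratio of the counts of 2 genes in each PTX and CTRL library (symbols by replicate number, mean ± SD beside them), with axes of equal span. The groups are apart for Camk2d/Camk2g, Camk2n2/Camk2a, Camk2n1/Camk2n2 and Camkk1/Camkk2 and overlap for Camk2a/Camk2b, Camk2n1/Camk2a and Camk4/Camkk2.

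Marker transcripts of cell types were read against the same background, with 39.2% of all tested genes called and a median log2 fold change of -0.03. Of 8 excitatory neuron markers 1 rose and 5 fell, and the list median was -0.73, against -0.66 for the 10 kinase and inhibitor genes. Neurod6 and Neurod2, transcription factors of excitatory neurons, fell by 1.73 and 1.62 on the log2 scale, while Nrn1, encoding the secreted protein neuritin, rose to 493 ± 93.8 CPM in PTX, against 112 ± 29.8 CPM in CTRL (SD, n = 4 each). These 3 markers were named after their values had been seen. The summed level of the list, which includes Nrn1, was 1118 to 1342 CPM in PTX and 978 to 1451 CPM in CTRL. Of 8 pan-neuronal markers 2 rose and 1 fell, a share of 37.5% called that is near the background, with a list median of -0.17. Their sums were 4774 to 6168 CPM in PTX and 4014 to 5003 CPM in CTRL, of which Map2 alone made up a mean of 3018 CPM in PTX and 2034 CPM in CTRL. Of 8 astrocyte markers 4 fell and none rose, with a list median of -0.42 and sums of 4526 to 6255 CPM in PTX and 6216 to 8378 CPM in CTRL. None of these markers was at 0 in all libraries. Their part in the changes of the kinase genes was not tested, and in such bulk libraries fewer cells of a type and less RNA per cell cannot be told apart.

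The wider pathway was described by 8 gene lists, each read against the 39.2% of tested genes that were called. Among tested genes with a mean level of at least 10 CPM, which most listed genes reached, the share was 45.9%. Of 16 other genes of the CaMK family, 3 rose and 6 fell (56.2% called, list median log2 fold change -0.17). Dclk1, encoding doublecortin-like kinase, a microtubule-binding relative, rose 2.88-fold to 2247, 1712, 2102 and 1859 CPM in PTX libraries, against 816, 669, 650.5 and 613 CPM in CTRL libraries. Its relative Dclk3 went the other way and fell 6.54-fold, to 2.32 ± 0.39 CPM in PTX against 15.2 ± 4.19 CPM in CTRL (SD, n = 4 each, edgeR adjusted p = 1.58e-05). Mylk, encoding myosin light chain kinase, rose 4.01-fold (edgeR adjusted p = 7.47e-05).

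Of 16 calmodulin genes and calcium or calmodulin buffers, 1 rose and 9 fell (62.5% called, list median -0.50). The calmodulin genes Calm2 and Calm3, named after their values had been seen, fell. Calm2 was at 1024 ± 31.0 CPM in PTX and 1544 ± 239 CPM in CTRL, and Calm3 at 1562 ± 139 CPM in PTX and 2078 ± 220 CPM in CTRL (SD, n = 4 each). Calmodulin genes have pseudogene copies, and reads at non-unique positions were not counted, so these levels are uncertain. Calm3 no longer passed when PTX replicate 3 (edgeR adjusted p = 0.0723), PTX replicate 4 (0.0697) or CTRL replicate 1 (0.0527) was left out, over a range of 9.44e-05 to 0.0723 across alternatives. Calb1, the buffer calbindin, fell most clearly, to 43.2 ± 6.13 CPM in PTX against 192 ± 40.7 CPM in CTRL (SD, n = 4 each, edgeR adjusted p = 8.95e-06). The neuronal calcium sensor genes Hpca and Hpcal4 fell by 1.14 and 0.68 on the log2 scale.

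Among 10 genes for calcineurin, the calcium-calmodulin phosphatase that opposes these kinases, and its regulators, 3 rose and 5 fell (80.0% called, list median -0.25). The rises were all in regulator genes, and no gene for a calcineurin subunit rose. Ppp3ca encodes the main neuronal catalytic subunit of calcineurin. It fell 2.32-fold to 455, 432, 453 and 431 CPM in PTX libraries, against 1233, 955, 1038 and 882.5 CPM in CTRL. Akap5, the scaffold that anchors calcineurin at synapses, fell 2.63-fold, and Rcan1, encoding an inhibitor of calcineurin, rose 1.89-fold (edgeR adjusted p = 3.56e-05 and 4.57e-05). Among 10 tested genes for phosphatases of CaM kinases and regulators of protein phosphatase 1 (PP1), 2 rose and 5 fell (7 of 10 called, list median -0.21). Ppp1r9a, encoding neurabin, fell 2.2-fold, with 120 to 137 CPM in PTX and 286 to 291 CPM in CTRL. Ppp1r1a, encoding a PP1 inhibitor, rose by 0.67 log2 units. Ppp1r9b, encoding spinophilin, fell by 0.35 log2 units, and did not pass when PTX replicate 3, PTX replicate 4 or CTRL replicate 1 was left out (edgeR adjusted p = 0.051, 0.058 and 0.0521, range over alternatives 0.000258 to 0.058). Without PTX replicate 3 the count of calls in this list was 3.

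Of 16 tested genes for postsynaptic partners and substrates of CaMKII, 2 rose and 9 fell (68.8% called, list median -0.31). The guanine nucleotide exchange factor genes Tiam1 and Kalrn fell by 0.77 and 0.83 log2 units, and Actn4, an actin crosslinker, rose by 0.69 (edgeR adjusted p = 8.25e-05, 0.000134 and 0.000675). The count of calls in this list was 7 without PTX replicate 3, CTRL replicate 1 or CTRL replicate 3, and 5 without PTX replicate 4. Of 7 presynaptic substrates 2 fell (28.6% called, list median -0.24), Syt1 (1.63-fold), the calcium sensor of vesicle release, and Syn2 (log2 fold change -0.92), a vesicle-tethering synapsin. With the replicate block the presynaptic count was 5, of which 4 were lower and 1 higher.

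Downstream of the other branch, 3 of 12 nuclear targets rose and 3 fell (6 of 12 called), and the list median was -0.04, against -0.03 over all genes. Mef2a, a transcription factor released by CaM kinase signaling, fell 1.98-fold and Crtc1, a CREB coactivator, fell by 0.75 log2 units, while Hdac5, a deacetylase exported from the nucleus after CaM kinase phosphorylation, rose by 0.53. Creb1 itself, named after its values had been seen, did not pass, at 147 ± 8.92 CPM in PTX and 142 ± 11.8 CPM in CTRL (SD, n = 4 each, edgeR adjusted p = 0.72). Of 10 genes, those for AMPK subunits and Akt downstream of CaMKK2 plus Stk11, 2 rose and 4 fell (60.0% called, list median -0.25). Stk11, named because it is neither an AMPK subunit nor an Akt gene, was not called. Prkaa2, an AMPK catalytic subunit gene, fell 1.61-fold, and Akt2, encoding a kinase of insulin signaling, fell by 0.45 log2 units.

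**Figure D4:**
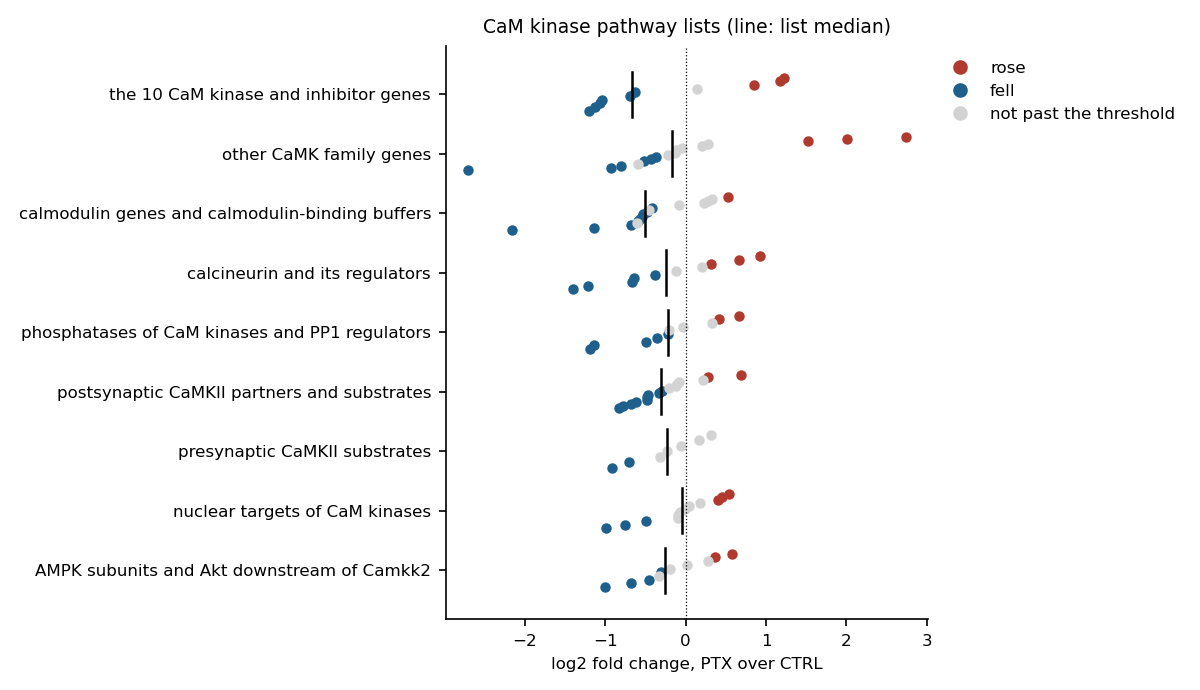
Log2 fold change (PTX over CTRL) of every tested gene in each list, coloured by whether it rose, fell or did not pass, with the list median as a line. Of the 10 kinase and inhibitor genes 3 lie near 1, 6 lie below -0.6 and Camk2d lies at 0.14, and the calmodulin list has its median at -0.50.

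Some genes tracked single kinases closely across the 8 libraries. Likeness was measured as the root mean square distance between log2 CPM profiles, each centred on its own mean, among 10106 genes of at least 10 CPM, so that it reflects the PTX difference as well as the scatter within groups. Closest to Camk2a were Sez6l (distance 0.06 log2 units) and Pnmal2 (0.07), to Camk2b Gabbr2, a GABA-B receptor subunit (0.06), and Zfp706 (0.08), and to Camk4 the adhesion gene Chl1 (0.06) and the AMPA receptor subunit gene Gria4 (0.08). Vstm2a (0.05) and Rasgrp2 (0.07) were closest to Camkk2, and Zfp712 and Pcdhgc4 (both 0.10) to Camk2n1.

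L3mbtl1 peaks lay within 2000 bp of a gene end at 2 of the 10 genes, Camk2b and Camk2n2, against 26.4% of the protein-coding genes tested, so the count is not particular to them. The scores are the authors' own. Camk2n2 had 2 peaks. The stronger, of 949 bp at chr16:20621483-20622431, ended 205 bp before the start site and took in the first 46 bases of the Camk2n2 window printed above, with a score of 14.9 and rank 782 of 4677. The weaker, of 578 bp at chr16:20620273-20620850 inside the gene, had a score of 8.17, equal to the lowest in the list. The nearest end of another coding gene, Eef1akmt4, lay 1404 bp from the weaker peak and 2614 bp from the stronger. Both peaks also lie inside the read-through gene Eef1akmt4-ece2, so they cannot be assigned to Camk2n2 alone. The Camk2b peak, of 481 bp at chr11:6064438-6064918, began 830 bp downstream of the start site in the promoter table, which is 1439 bp inside the outer end of the gene, and had a score of 10.4, rank 2532.

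Camkk1 fell outside the 2000 bp rule because RefSeq puts the outermost start of the gene 2586 bp before its peak. The peak of 1540 bp at chr11:73018629-73020168 nevertheless covered the start site of the promoter table and all 300 bases of the Camkk1 window, from position -359 to 1180 relative to the start site, with a score of 13.1 and rank 1263. It also covered 1 end of the long noncoding RNA gene 4732414G09Rik (73015856 to 73018841, mean 1.29 CPM in PTX and 1.565 CPM in CTRL). The peak therefore cannot be assigned to Camkk1 alone. The remaining 7 genes had no peak within 2000 bp of an end or inside the gene, and the nearest one lay between 16982 bp (Camk4) and 990009 bp (Camk2d) from a gene end. Of the 3 genes with a peak at an end or inside, Camk2n2 and Camkk1 rose and Camk2b fell. The signal of L3mbtl1-/- and wild type samples could not be compared in 1 shared list.

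**Figure D5:**
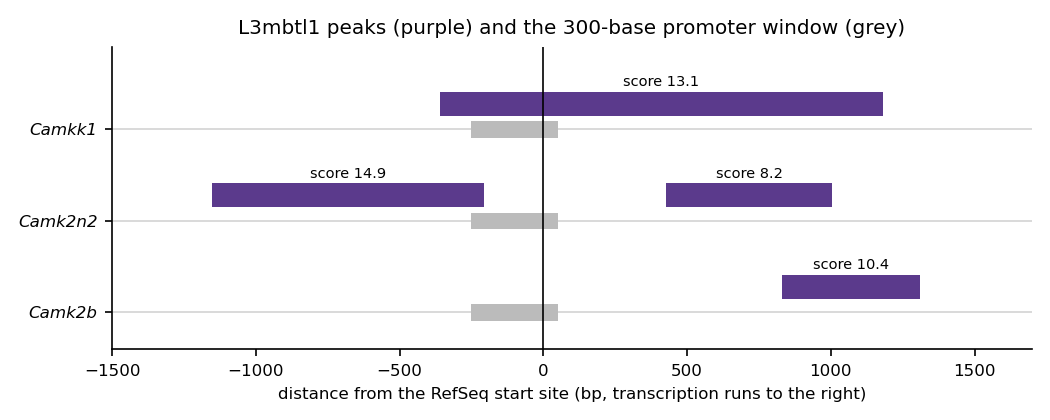
Position of the L3mbtl1 peaks (purple, with their scores) relative to the RefSeq start site of Camkk1, Camk2n2 and Camk2b in bp, beside the promoter window of 300 bases (grey). The Camkk1 peak covers the start site, the Camk2n2 peaks flank it, and the Camk2b peak lies from 830 to 1310 bp downstream.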

How the data were processed

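RNA-seq was made from 8 hippocampal cultures (4 PTX, 4 CTRL) and L3mbtl1 ChIP-seq from 6 hippocampus samples. The authors deposited 1 table of unnormalized counts for each culture, with reads summed by Ensembl gene. Per the labels' protocols, libraries were made with ScriptSeq v2 from 15 ng of RNA depleted of ribosomal RNA. The submitters' processing notes name TopHat2 2.0.9, Bowtie2 2.2.4, HTSeq 0.6.1, CASAVA 1.8 and the build mm10 without saying which did what. Whether counting used strand is not stated. The 5 summary lines of each table stayed out of library sizes. They put 19.9% to 26.8% of alignments outside genes and 15.2% to 20.5% at non-unique positions, where reads of similar paralogs are lost. Gene symbols matched 42462 identifiers. No 2 libraries were copies, with a smallest chi-square per degree of freedom of 9.45 within a group.

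The peak score is the authors' own, in 1 deposited list for all ChIP-seq samples. Neither its meaning nor the peak caller is stated. Gene positions and promoters came from RefSeq (GRCm38.p6), where 6 of the 10 genes matched a promoter.

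Counts were tested with edgeR 4.0.16 in R 4.3.3 (quasi-likelihood test on TMM-scaled counts kept by filterByExpr, with no term besides group), with Benjamini-Hochberg adjustment over 15959 genes. The SE is the log2 fold change divided by the square root of F. Ratios of counts had 0.5 added to each count. Those that were tested used 2-sided exact permutation over 70 splits, which does not use the replicate numbers. The labels call the cultures biological replicates and do not say whether they came from separate preparations. Samples numbered 1, 2 and 4 deviated together with the same number in the other group (correlation of deviations from the group means over genes 0.77, 0.57 and 0.61). For number 3 it was 0.15, below that of CTRL 3 with PTX 2 (0.207) or PTX 4 (0.209). The numbers thus pair the samples only in part, and a fit with the replicate number as a block was run. Other alternatives were median-ratio (RLE) scaling, DESeq2 1.42.0, no count filter, each library left out and both libraries numbered 1 left out. The members, lists and tests were chosen with earlier results of these data known. The rule for names took all 10 members, the 3 called genes of smallest p in each list and the 2 nearest profiles of 5 members, with exceptions stated; 1 gene that the rule took is not reported here. Each count of a peak near a gene used both ends, 2000 bp and an overlap of at least 1 bp. The edgeR code was tested on simulated data.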

Additional observations from a re-analysis of the deposited data

Results flagged for a closer look

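Camk4 in CTRL was the 1 group of 34 (10 genes and 7 ratios, each in PTX and CTRL) with a library far from the other 3. CTRL replicate 1 had 550.3 CPM, against 428.5 to 444 CPM in the other CTRL libraries, a gap of 0.872 of the group's range. Chance flags about 1 in 20 groups.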

How the results depend on the processing

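All 10 genes kept their direction and their side of the threshold in all 13 alternatives each (130 values), and 3 rises and 6 falls were called with the replicate block, RLE scaling, DESeq2, no count filter, without both libraries numbered 1 and without any 1 library. The replicate block called 8820 genes in all, against 6248 without it, and changed no call among the 10 genes. In the lists, presynaptic calls were 5 with the replicate block and 4 without both libraries numbered 1, against 2. Leaving out 1 library moved the presynaptic count over 2 to 3, the phosphatase count over 3 to 8 (against 7) and the postsynaptic count over 5 to 11 (against 11). All 7 ratios kept their direction. Without both libraries numbered 1 the smallest possible exact p was 0.1, and the 4 ratios whose groups did not overlap had log2 differences of 1.35 (Camk2d/Camk2g), 2.40 (Camk2n2/Camk2a), -1.88 (Camk2n1/Camk2n2) and 2.21 (Camkk1/Camkk2). Camk2n1/Camk2a ran from 0.39 to 0.68 with 1 library left out and reached an exact p = 0.0286 without CTRL replicate 2, Camk2a/Camk2b ran from -0.17 to -0.04 and Camk4/Camkk2 from 0.28 to 0.48. The count of genes with a peak at an end was 1 with a window of 1000 bp and 1 with only the peaks scoring at or above the median, Camk2n2 in both. Counting cannot separate splice forms, so isoform changes within a gene were not analysed here.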

Other observations

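Among the marker lists, inhibitory neuron markers had 3 rises and 3 falls among 8 genes (list median log2 fold change 0.28), where 39.2% of all tested genes were called, 19.0% higher and 20.1% lower in PTX. Gad2, an enzyme of GABA synthesis, was at 365 ± 39.0 CPM in PTX and 198 ± 19.0 CPM in CTRL, and Lhx6, a transcription factor of interneurons, at 10.3 ± 2.98 CPM in PTX and 24.9 ± 6.51 CPM in CTRL (SD, n = 4 each).

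Ppp1ca and Cacng8 were listed with 0 counts in all 8 libraries and stayed out of the tests. Whether these 0 counts mean absent transcripts or come from the counting was not tested. Ppp1cb was at 588 ± 32.1 CPM in PTX and 599 ± 21.6 CPM in CTRL (SD, n = 4 each). Dapk2, a death-associated kinase of the CaMK family, was at 4.92 ± 0.88 CPM in PTX and 0.73 ± 0.37 CPM in CTRL (SD, n = 4 each, edgeR adjusted p = 0.000163), the largest log2 rise (2.75) in the 8 lists. Gad2, Lhx6, Ppp1cb and Dapk2 were chosen after their values had been seen.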
